A study of Homo sapiens with 20 samples.

Results

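The 4 stable LNCaP lines were compared for their response to doxycycline, with 3 lines that carry lysine-to-arginine mutants of EHMT1 (K450R, K451R and K450RK451R) set against the line that carries wild-type EHMT1 (WT). For each gene, the log2 ratio of its level with doxycycline (Dox) over its level without it (Veh) was taken in each line, and the ratio in WT was subtracted from the mutants' ratio. The test was run on all genes above a count limit, whatever their direction. Genes where all 3 mutants departed from WT in the same direction were counted and described. This used 16 of the 20 samples of the series. They form 8 conditions with 2 count columns each, and 12767 genes had a mean count of at least 20 over the 8 conditions. Of these, 18 genes passed an adjusted p under 0.05 in edgeR's quasi-likelihood test of the difference, and all 18 departed the same way in all 3 mutants.

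LNCaP is a human prostate adenocarcinoma line. All 4 lines shared a lentiviral cassette that places a V5-tagged EHMT1 reading frame under a doxycycline-controlled promoter, were selected with puromycin, and kept their own EHMT1 gene. Doxycycline was given to the Dox samples at 0.25 µg/mL over 2 days. The Veh samples are labelled untreated. Whether each line is a clone or a pool is not stated in the sources used here, so the EHMT1 variant and the line cannot be told apart. Every line, WT included, was given the drug, so an effect of doxycycline that is common to the lines is removed by the subtraction. The 4 other samples are LNCaP cells treated with 20 nM of siRNA against EHMT1 (siEHMT1) or a nontarget control (siNTC), 2 of each, and they served as a separate readout.

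EHMT1, also called GLP, forms a complex with EHMT2 (G9a) that methylates histone H3 on lysine 9, a mark of repressed chromatin. The enzymes also methylate proteins other than histones, themselves included. Arginine keeps the positive charge of lysine but cannot be methylated by lysine methyltransferases, which is why such substitutions are used to mimic an unmethylated residue. The mutated codons lie in exon 8 of the 27 exons of EHMT1, at chr9:140648722-140648727 of GRCh37 on the plus strand, in a transcript that encodes 1298 residues. The reference sequence around them is shown because it places both lysines side by side, with the 2 lysine codons that K450R and K451R alter in capitals.
EHMT1, chr9:140648698-140648743, plus strand: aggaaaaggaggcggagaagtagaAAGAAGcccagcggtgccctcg

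EHMT1 RNA was checked first. In Veh it stood at 76.5 CPM (counts scaled to a common library size with TMM factors) in WT, 84.3 in K450R, 71.9 in K451R and 88.9 in K450RK451R. In Dox it stood at 799, 842, 727 and 664 CPM. These are log2 ratios of 3.38, 3.32, 3.33 and 2.90. The EHMT1 level in WT lay within the range of the mutants in both conditions, and the mutants' ratio differed from that in WT by −0.20 ± 0.14 (SE), with an adjusted p of 0.809 in the edgeR test. A gene count does not separate the transgene from the cell's own gene. EHMT2 stood between 81.9 and 87.9 CPM in all 8 conditions.

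The 2 columns of a condition differed by no more than sampling noise, as the chi-square over genes, divided by its degrees of freedom, was 0.995 to 1.02, against 13.4 and 61.6 for the siRNA pairs. They were therefore summed and counted as 1 sample. The summed totals ran from 8436791 to 12407739 counts. The Dox total was 0.73 times the Veh total in WT, and 1.14, 1.37 and 1.19 times in K450R, K451R and K450RK451R, so depth moved in opposite directions in WT and in the mutants. Its part in the results was not tested. All 9 luminal prostate markers looked for, such as KLK3 and EPCAM, were detected and summed to 9540 to 10600 CPM. The 17 markers of other cell types summed to 104 to 116 CPM. Of these, 11, PTPRC and KRT5 among them, never rose above 3 counts. Most of the sum came from VIM (58.3 to 78.3 CPM) and COL1A1 (30.7 to 40.9 CPM). VIM thus stood near EPCAM (51.2 to 70.7 CPM), and VWF had 33 to 70 counts. WT is a single pair of libraries, its error is taken from the 3 mutants, and all differences share it.

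Of the 18 genes, 17 were lower in the mutants relative to WT (0.133% of the genes tested) and 1 was higher (0.00783%). Without adjustment, p was under 0.05 for 456 lower genes (3.57%) and 473 higher genes (3.7%), and 64 of the lower (0.501%) and 110 of the higher (0.862%) also differed by at least 2-fold. The 17 lower genes were mostly abundant genes, and those reported here include the hypoxia and glucose genes HILPDA, BHLHE40, ANKRD37, PFKFB3, SLC2A1 and JMJD6, the heat shock genes HSPA1B and HSPA6, the immediate-early genes DUSP1, JUNB and GADD45B, and ID2, MT2A, FTH1, AHNAK and EFNA1. The WT log2 ratios of the 17 lay between −0.10 and 0.51, with a median of 0.0954, while the medians in K450R, K451R and K450RK451R were −0.534, −0.791 and −0.798. In 16 of the 17 the ratio was below 0 in all 3 mutants, a sign that the choice of these genes on the same ratios favours. The exception was FTH1.

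**Figure D1:**
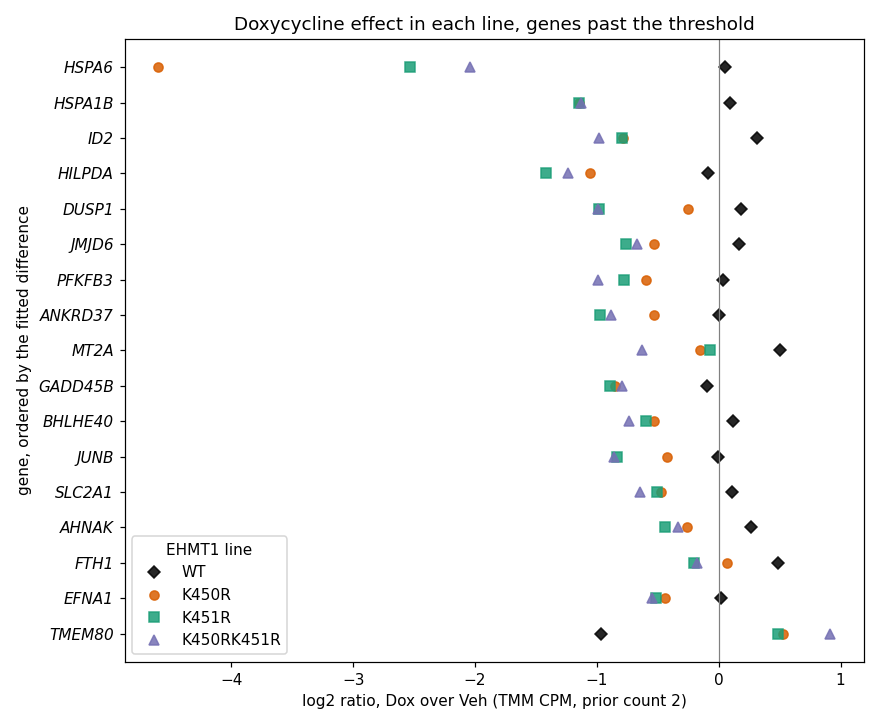
Doxycycline effect of 17 of the 18 genes past the threshold, as the log2 ratio of Dox over Veh on the horizontal axis, with 1 point per line and genes ordered by the fitted difference between mutants and WT. For every gene above TMEM80 the WT diamond lies to the right of all mutant points, and for TMEM80 itself it lies to the left. The K450R point of HSPA6 rests on 1 count in Dox.

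HILPDA, a lipid droplet protein induced by low oxygen, had the smallest p of all genes. It stood at 1028 CPM in Veh and 969 in Dox in the WT line. K450R went from 733 to 352 CPM, K451R from 650 to 243 and K450RK451R from 445 to 189. All 3 mutants were already below WT without doxycycline, and the gap widened with it. The mutants' mean log2 ratio was −1.24 ± 0.18 (SD, n = 3) against −0.09 in WT, and the fitted difference was −1.15 ± 0.12 (SE; edgeR adjusted p = 1.19e-06).

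BHLHE40, a transcriptional repressor that responds to hypoxia and to the circadian clock, stood at 942 CPM in Veh and 1022 in Dox in WT. Its level went from 831 to 574 in K450R, then from 638 to 422 in K451R and from 678 to 407 in K450RK451R. The WT libraries were the highest in each condition, and the difference of −0.74 ± 0.11 passed the test (edgeR adjusted p = 0.00048). ANKRD37, a small ankyrin-repeat protein and a direct HIF target, stood at 426 CPM in both WT libraries. It went from 323 to 223, from 370 to 188 and from 240 to 130 CPM in K450R, K451R and K450RK451R, a difference of −0.80 ± 0.13 (edgeR adjusted p = 0.0022). JMJD6, a dioxygenase that hydroxylates lysines and uses oxygen to do so, stood at 74.9 and 84.1 CPM in WT. Its mutant levels went from 81.5 to 56.2, from 67.4 to 39.6 and from 61.2 to 38.3 CPM. In Veh the WT level of JMJD6 lay among the mutants, and in Dox it lay above them.

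PFKFB3 makes fructose 2,6-bisphosphate, the activator of the committed step of glycolysis. It stood at 701 CPM in Veh and 717 in Dox in WT, and went from 646 to 427 in K450R, from 495 to 288 in K451R and from 519 to 261 in K450RK451R. The difference was −0.82 ± 0.12 (edgeR adjusted p = 0.00048). SLC2A1, the glucose transporter GLUT1, stood at 365 and 392 CPM in WT, and its mutant levels went from 345 to 248, from 283 to 199 and from 284 to 181 CPM, a difference of −0.65 ± 0.12 (edgeR adjusted p = 0.0063). For both genes WT stood above the 3 mutants in either condition.

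HSPA1B encodes the stress-inducible HSP70, and its reads may be shared with the near-identical HSPA1A. It stood at 99.2 and 106 CPM in WT, and went from 84.6 to 38.1 in K450R, from 66.8 to 30.1 in K451R and from 46.6 to 21.1 in K450RK451R. The 3 mutants had almost the same ratio, −1.14 ± 0.0065 (SD, n = 3), and the difference from WT was −1.24 ± 0.15 (edgeR adjusted p = 3.19e-05). The mutant libraries held 272 to 685 counts of HSPA1B. Counting noise alone is larger than this SD at such counts, so the SD does not measure how alike the lines are. HSPA6, an HSP70 gene that is nearly silent without stress and resembles the HSPA7 copy, was a low-count gene. It had 184 and 143 counts in WT, while K450R had 58 and 1, K451R 62 and 14 and K450RK451R 28 and 7. Its fitted difference of −3.22 ± 0.54 (edgeR adjusted p = 0.0022) depends on how the single K450R count is treated and gives no fold. Without the K450R line it was −2.64.

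Among the immediate-early genes, DUSP1, a phosphatase that switches off MAP kinases, stood at 512 and 580 CPM in WT. K451R went from 454 to 229 CPM, K450RK451R from 453 to 227 and K450R from 600 to 503. K451R and K450RK451R thus had nearly the same levels, and K450R stood closer to WT. The difference was −0.92 ± 0.17 (edgeR adjusted p = 0.0066), and it was not called by DESeq2 (adjusted p = 0.604) or by the robust quasi-likelihood fit (0.818). JUNB, a subunit of the AP-1 factor, had the same order, with 491 and 488 CPM in WT and log2 ratios of −0.42, −0.83 and −0.86 in K450R, K451R and K450RK451R. It was not called by DESeq2 either (adjusted p = 0.263). GADD45B, a protein of growth arrest and DNA damage responses, stood at 204 and 190 CPM in WT and went from 157 to 87.1, from 127 to 68.1 and from 97.4 to 55.9 CPM in the mutants, a difference of −0.75 ± 0.12 (edgeR adjusted p = 0.0019). ID2, which is in none of the gene lists and blocks the DNA binding of helix-loop-helix factors, stood at 27.7 and 34.5 CPM in WT and went from 32.2 to 18.6, from 28.4 to 16.3 and from 25.5 to 12.8 CPM. Without doxycycline the ID2 level of WT lay among the mutants.

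MT2A and FTH1 had the highest WT ratios of the 18 genes. MT2A, a metal-binding metallothionein with close paralogs, stood at 107 CPM in Veh and 152 in Dox in WT, while K450R had 94.8 and 85.4, K451R 90.6 and 86.2 and K450RK451R 109 and 70.7. FTH1, the ferritin heavy chain that stores iron and has many pseudogenes, stood at 463 and 649 CPM in WT. In the mutants it stood at 425 and 444, 445 and 386, and 448 and 397 CPM. The WT log2 ratios were 0.51 and 0.49, and the differences were −0.80 ± 0.16 and −0.59 ± 0.12 (edgeR adjusted p = 0.0144 and 0.0151). AHNAK, a giant scaffold protein, and EFNA1, a membrane ligand of Eph receptors, had smaller differences of −0.61 and −0.52. JUNB, SLC2A1, AHNAK, FTH1 and EFNA1 were described after their values were seen.

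**Figure D2:**
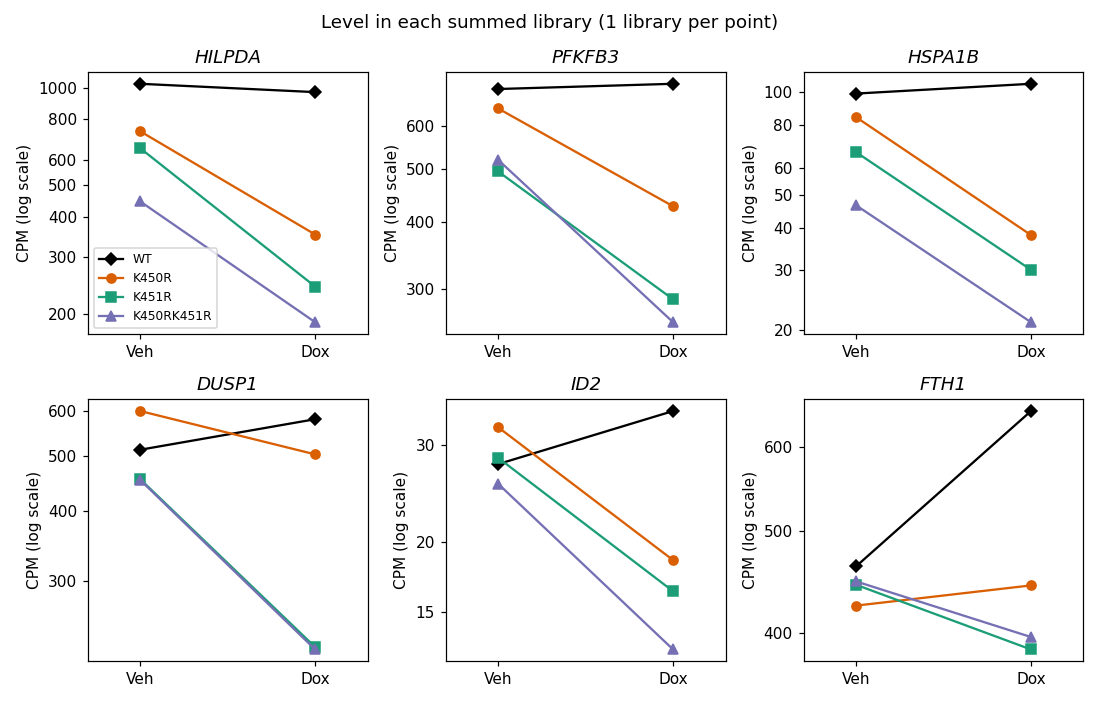
Levels of 6 genes in the 8 summed libraries, in CPM on a log scale, with each line's Veh and Dox values joined. For HILPDA, PFKFB3 and HSPA1B the WT line stays nearly flat above 3 descending mutants, for DUSP1 and ID2 the WT value lies among the mutants in Veh, and for FTH1 only the WT line climbs steeply. The axes differ between panels and do not start at 0.

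Where WT stood relative to the mutants was then compared without and with doxycycline. In Veh, WT was above all 3 mutants in 12 of the 17 lower genes and among them in 5 (DUSP1, AHNAK, JMJD6, ID2 and MT2A), while over all genes tested it was above them in 23.5%. In Dox it was above all 3 in 17 of 17, against 29.5% of all genes, a position the choice of these genes favours. A gap that is more negative in Dox than in Veh is what the test selected, and the gaps are given as a description. The mutants' mean minus WT, on the log2 scale, was −0.79 in Veh and −1.94 in Dox for HILPDA, −0.71 and −1.46 for GADD45B, and 0.05 and −1.12 for ID2.

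The single gene higher in the mutants was TMEM80, a transmembrane protein. It went from 11.7 to 5.88 CPM in WT, and from 10.0 to 14.5 in K450R, from 10.2 to 14.4 in K451R and from 9.44 to 17.9 in K450RK451R. The difference was 1.65 ± 0.35 (edgeR adjusted p = 0.0428), and the call was lost with upper-quartile factors (adjusted p = 0.051), without the K450RK451R line (0.0539), with the level of the gene as an offset (0.0764) and without replicate 1 (0.221). The next genes by p did not pass and are given by value. ETFDH, which passes electrons from fatty acid oxidation to the respiratory chain, had a difference of 1.04 ± 0.24 (edgeR adjusted p = 0.0785). SCARNA5, a small Cajal body RNA, SSFA2, NT5DC3 and ACAP3 had differences of 1.13, 0.54, 1.47 and 0.55, with edgeR adjusted p of 0.0866, 0.119, 0.155 and 0.161. In all of these genes the WT log2 ratio was below 0, from −1.26 for SCARNA5 to −0.49 for SSFA2. Their choice on the same ratios favours that sign.

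The direction alone was a weak criterion. Among the 10866 genes whose counts averaged at least 50, all 3 mutants departed from WT the same way in 5835 (53.7%), 2992 of them lower (27.5%) and 2843 higher (26.2%). When each mutant had to depart by at least 1.5-fold, 50 genes were lower (0.46%) and 144 higher (1.33%). At 2-fold, 5 were lower (0.046%) and 13 higher (0.12%). GADD45G lay just inside the 1.5-fold limit, with a smallest departure of 0.59 on the log2 scale, and PITPNC1 just outside with 0.58. For the adjusted p, EFNA1 and TMEM80 lay just inside (0.0428), and ELF3, PIM3 and DDIT4 just outside (0.0504).

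The genes past 1.5-fold were mostly low-count genes. Their median mean count was 91.8 for the lower and 93.9 for the higher genes, against 298 for all 10866 genes, and 9 and 1 of them passed the adjusted p. The rule used the WT ratio, so its sign in these genes is a description. In the higher group it was below 0 in 143 of the 144 genes, with a median of −0.589, while the median ratios in K450R, K451R and K450RK451R were 0.266, 0.30 and 0.376. In the lower group it was above 0 in 47 of 50, with a median of 0.493, and the mutant medians lay between −0.422 and −0.319. In the 17 lower genes past the adjusted p the WT median was 0.0954, nearer to 0. The 5 lower genes past 2-fold were HSPA6, HSPA1B and ID2, described above, and DHRS2 and PLK3, named here after their values were seen. DHRS2, a short-chain dehydrogenase, stood at 9.05 and 12.9 CPM in WT and went from 9.01 to 3.84 in K450R, from 5.36 to 2.86 in K451R and from 5.69 to 2.95 in K450RK451R (difference −1.54, edgeR adjusted p = 0.209). PLK3, a stress-responsive kinase, had a difference of −1.29 (edgeR adjusted p = 0.478).

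The size of the difference also went with the level of the gene. The median difference over all genes tested was −0.0045, but it ran from 0.0686 for mean counts of 20 to 100 to −0.103 for the 356 genes at 3000 counts and over. Of the 17 lower genes, 9 were in that top class. When the mean level was added as a loess offset per library, an alternative added after the data were seen, 14 of the 17 were still called. AHNAK, FTH1 and EFNA1 were not (adjusted p = 0.0766, 0.139 and 0.221), nor was TMEM80, and their differences were then −0.51, −0.48, −0.42 and 1.58. HILPDA had a difference of −1.04 and PFKFB3 of −0.71 in that fit.

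**Figure D3:**
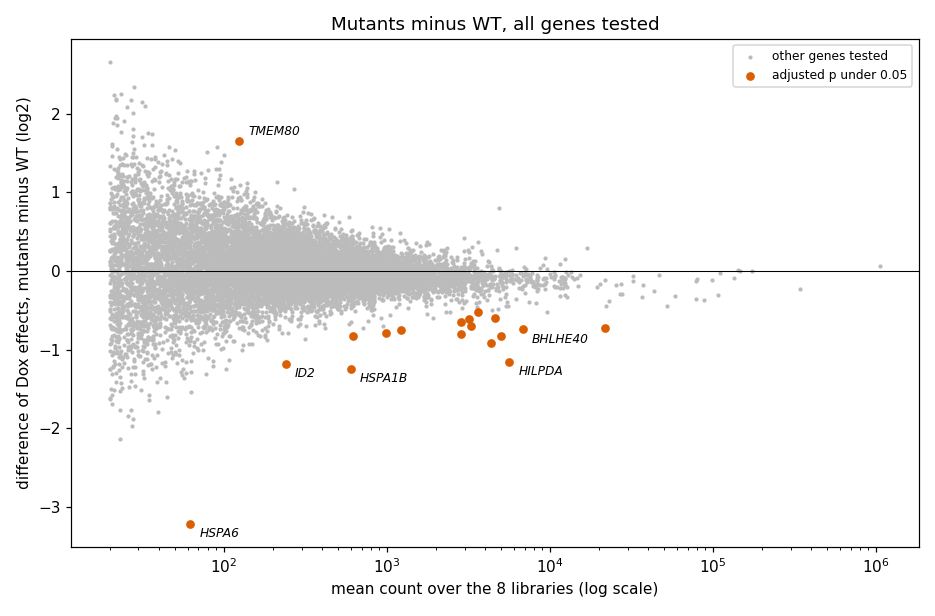
Difference of doxycycline effects between the 3 mutants and WT (log2, vertical axis) against the mean count over the 8 libraries (log scale), for all 12767 genes tested. The 18 genes past the threshold are in orange and 6 are named; 17 lie below 0, mostly at high counts, and the cloud of all genes tilts slightly downwards to the right.

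Gene lists were described by their counts and medians. Of 37 lists, 6 held a called gene. Over all 12767 genes tested, 17 were lower (0.133%) and 1 higher (0.00783%). The share went with level, as 9 of the 356 genes at 3000 counts and over were called lower, against 1 of 3622 at 20 to 100. Of 34 hypoxia genes, 5 were lower (HILPDA, BHLHE40, ANKRD37, SLC2A1 and JMJD6) and none higher, and the median difference was −0.163, or −0.0788 with the level offset. SLC2A1 is also in the glycolysis list, the only gene in both. DDIT4, an inhibitor of mTORC1 in the same list, had a difference of −0.44 (edgeR adjusted p = 0.0504). Other classical members, named after their values were seen, did not pass, such as VEGFA with −0.21, CA9 with 0.38 and EGLN3 with 0.20. Of 21 glycolysis genes, PFKFB3 and SLC2A1 were lower. No other glycolysis gene passed, and ALDOA and GAPDH had differences of −0.37 and −0.31 (edgeR adjusted p = 0.182 and 0.265). The glycolysis median was −0.161, and −0.0459 with the level offset.

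Of 22 immediate-early genes, 3 were lower (DUSP1, JUNB and GADD45B), against 0.133% of all genes tested. In 17 of the 22 all 3 mutants were below WT, against 26.9% of all genes tested. The median was −0.294, the lowest of these lists. JUND, KLF10 and FOS had differences of −0.52, −0.63 and −0.59 and did not pass (edgeR adjusted p = 0.0904, 0.0904 and 0.107). The median ratio of this list was −0.07 in WT, −0.269 in K450R, −0.434 in K451R and −0.446 in K450RK451R. Of 20 heat shock genes, only HSPA1B and HSPA6 were called, and the median was −0.0578, or −0.102 without the K450R line and −0.0129 with the level offset. The constitutive chaperones HSPA8 and HSP90AB1, also named after their values were seen, had differences of 0.03 and −0.17, and HSPB1, a small heat shock protein, had −0.44 (edgeR adjusted p = 0.107). Of 6 genes for metallothioneins and zinc response, MT2A was called, and MT1X had −0.66 (edgeR adjusted p = 0.349). Of 14 clock genes, BHLHE40 was called.

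The other 31 lists held no call. Among the 26 of them with at least 10 genes tested, the median differences lay between −0.129 and 0.393. E2F targets and DNA replication genes had a median of 0.052 with 0 of 69 called, and at an unadjusted p under 0.05 it had 3 of 69 higher and 0 lower, against 3.7% and 3.57% of all genes. Genes of G2/M and mitosis had a median of −0.075 (0 of 60), MYC targets and nucleolar genes 0.068 (0 of 55), and ribosomal proteins −0.102 (0 of 77). All 3 mutants had a ratio above that of WT in 25 of the 69 E2F genes and below it in 9. For ribosomal proteins these counts were 2 above and 44 below of 77. For G2/M genes they were 17 and 24 of 60, and for MYC targets 13 and 10 of 55. Over all 12767 genes tested they were 3402 above and 3428 below (26.9%), and the differences share 1 WT pair. The ribosomal median was not recomputed with the level offset, and the median difference over all genes at 3000 counts and over was −0.103. Without the K451R line the G2/M median was −0.0214 and the MYC median 0.0224, without the K450R line the MYC median was 0.115, and with the level offset the G2/M median was −0.0423. FEN1, a replication nuclease, and MCM3, a subunit of the replicative helicase, had differences of 0.66 and 0.54 (edgeR adjusted p = 0.446 and 0.537). The highest median, 0.393, belonged to the 11 mitochondrially encoded genes, where 1 line decided the value: their median ratio was 0.702 in K450R, and −0.612, −0.806 and −0.592 in WT, K451R and K450RK451R. Of the genes the study itself singles out, some of them chosen on samples of this series, none of the 10 tested was called. The paper describes some genes as activated specifically by its dual mutant, and a difference averaged over 3 mutants does not measure that. REST and ENO2 had differences of 0.08 and −0.08. The paper names ENO2 from silencing of EHMT1 and EHMT2, and REST as a complex that holds EHMT1.

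**Figure D4:**
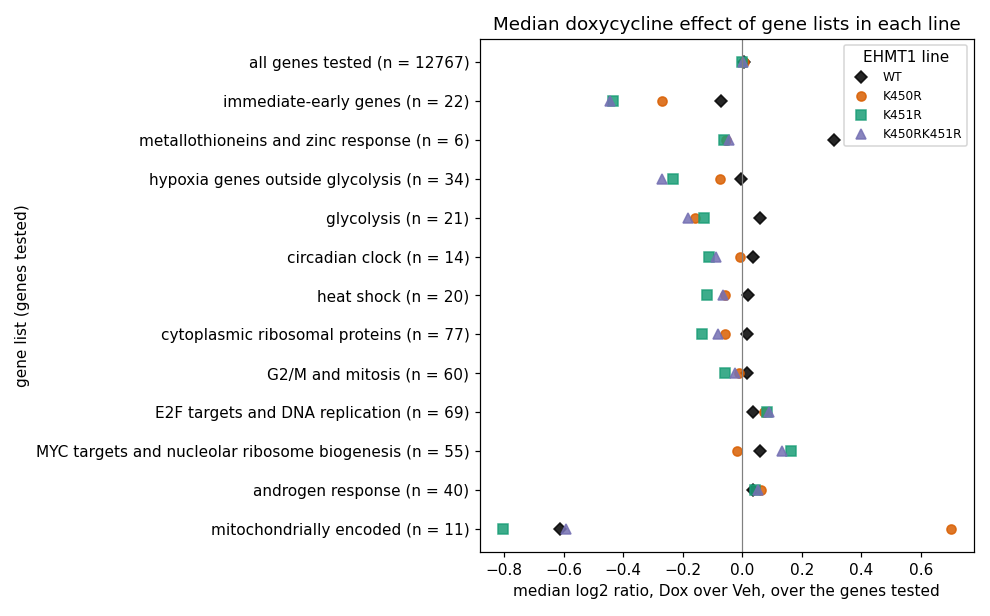
Median log2 ratio of Dox over Veh in each line, for all genes tested and for 12 gene lists, with the number of genes tested in brackets. The mutants lie left of WT for immediate-early, hypoxia and glycolysis genes, the lines lie close together for cell cycle and androgen lists, and K450R stands apart for mitochondrially encoded genes.

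Across genes, the doxycycline effects of the lines were alike only in part. Over the 6947 genes whose counts averaged at least 200, Pearson's r between mutants was 0.372 (K450R and K451R), 0.303 (K450R and K450RK451R) and 0.463 (K451R and K450RK451R). Between WT and these mutants it was 0.215 with K450R, 0.24 with K451R and 0.098 with K450RK451R. These are descriptions across genes, which are not independent, and counting noise lowers them. The SD of the effect over the same genes was 0.182 in WT and 0.211 to 0.221 in the mutants.

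The siRNA samples gave a readout that the choice of genes did not use. EHMT1 itself had a log2 change of −1.51 in siEHMT1 (edgeR adjusted p = 5.90e-07). Of the 12781 genes tested, 13 passed an adjusted p under 0.05 (0.102%) and 1187 an unadjusted p under 0.05 (9.29%). Of the 18 genes, 17 could be tested, 0 passed the adjusted p in edgeR or DESeq2, and 1 passed the unadjusted p in edgeR. That gene was PFKFB3, at −0.32 ± 0.11 (unadjusted p = 0.0132, edgeR adjusted p = 0.371). Of the 16 lower genes tested, 8 were higher and 8 lower in siEHMT1. HILPDA, the leading gene in the stable lines, had a change of −0.11 ± 0.14, and it stood at 25.9 and 27.7 CPM in siNTC and 25.9 and 23.7 in siEHMT1. Control levels differed between the experiments, as HILPDA stood at 1028 CPM in WT Veh. BHLHE40 stood at 34.65 CPM in both siNTC samples and 942 in WT Veh, and ANKRD37 at 5.40 and 5.55 against 426. HSPA1B was closer (57.8 and 53.3 against 99.2), and TMEM80 went the other way (22.1 and 20.2 against 11.7). Whether the low levels in siNTC limited what siEHMT1 could show was not tested. DHRS2 had a change of −1.07 in siEHMT1 (edgeR unadjusted p = 0.0040, edgeR adjusted p = 0.265).

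The sequences before the start sites of the called genes were searched, because several members belong to families with known response elements. RefSeq windows on GRCh38.p14 were found for 14 of the 18 genes, 16 windows in all, and not, for example, for HILPDA, JMJD6 and FTH1. The letters ACGTG, the core of the hypoxia response element and also part of the E-box CACGTG, were in the 250 bases before the start in 6 of the 16 windows (those of ANKRD37, BHLHE40, DUSP1, GADD45B, ID2 and PFKFB3), against 18.5% of 35116 windows, on either strand. GAANNTTC, a pair of heat shock units, was in 2 windows (HSPA1B and HSPA6), against 5.78%. TGACGTCA, the cAMP response element, was in 1 (DUSP1), against 1.65%. These are matches of letters and not sites of binding. The letters were picked for families of genes already called, so their presence there is a description. The background windows were not matched for expression or GC content. Median transcript GC was 53.9% in the 17 lower genes and 47.8% over all genes tested. Windows are shown for the hypoxia and glucose genes with ACGTG, for both heat shock genes and for the gene with TGACGTCA, each 5′ to 3′ in the sense of the gene on GRCh38.p14, with all matches to ACGTG in ANKRD37, PFKFB3 and BHLHE40, to GAANNTTC in the HSPA genes and to TGACGTCA in DUSP1 in capitals.
ANKRD37, chr4:185396659-185396722, plus strand: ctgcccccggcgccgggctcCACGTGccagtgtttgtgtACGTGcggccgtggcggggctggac
PFKFB3, chr10:6202804-6202849, plus strand: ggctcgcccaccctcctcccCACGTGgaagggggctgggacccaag
BHLHE40, chr3:4979187-4979312, plus strand: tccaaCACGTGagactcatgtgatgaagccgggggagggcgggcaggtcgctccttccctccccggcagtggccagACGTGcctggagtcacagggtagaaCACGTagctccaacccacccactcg
HSPA6, chr1:161524340-161524498, plus strand: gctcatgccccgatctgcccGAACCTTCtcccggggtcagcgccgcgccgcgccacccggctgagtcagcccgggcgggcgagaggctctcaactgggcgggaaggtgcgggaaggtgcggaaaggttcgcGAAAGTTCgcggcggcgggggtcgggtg
HSPA1B, chr6:31827613-31827660, plus strand: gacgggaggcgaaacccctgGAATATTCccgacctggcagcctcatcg
DUSP1, chr5:172771293-172771340, minus strand: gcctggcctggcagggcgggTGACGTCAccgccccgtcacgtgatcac
A palindrome such as CACGTG counts once on each strand, so that 6 capitals in a row hold 2 overlapping matches. ANKRD37 and BHLHE40 held matches at more than 1 place, and HSPA6 held 2 heat shock pairs far apart.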

How the data were processed

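Gene expression was measured by RNA-seq of total RNA from LNCaP cells, as 2 tables of raw counts. The authors deposited these counts per Ensembl gene without normalization, and their processing notes name FastQC 0.11.9, STAR 2.7.2, featureCounts 1.6.4 and the build hg19 (GRCh37). Libraries were stranded, but the strand setting of the counting is not given in the sources used here, so reads of overlapping antisense genes may be shared. The genes, lists and tests were chosen with earlier results of these data known.

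Columns 1 and 2 of each stable-line condition were summed to 8 libraries of 8436791 to 12407739 counts. The labels name them rep 1 and rep 2, but nothing in the labels says that they are separate cultures. Genes whose counts averaged at least 20 were fitted in edgeR 4.0.16 (R 4.3.3) with TMM factors and the quasi-likelihood test of the doxycycline by mutant term, in a model with a term for each line. This left 2 residual degrees of freedom, moderated by a prior of 28.3, and p-values were adjusted by Benjamini-Hochberg over all genes tested. Log2 ratios per line used CPM with a prior count of 2. The 4 siRNA samples were tested in the same way. Positions came from GENCODE release 44 lifted to GRCh37 and were found for 55538 of 57773 identifiers.

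Named genes were the 12 largest called differences in each direction, filled up to 6 in the direction with fewer by the smallest p with the same count rule (mean count of at least 50), then up to 4 members of each list by p, and genes the study names. A called gene and some other genes are not reported here. Alternatives were other size factors, DESeq2 1.42.0, limma-voom (limma 3.58.1), other filters on low counts and a GC offset. Further ones were each mutant line or column left out, the 16 columns as replicates, and a replicate block. The WT line, on which every difference rests, could not be left out. A robust quasi-likelihood fit and an offset for gene level (span 0.5) were added after the data were seen.

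The test was tried on simulated counts of 12677 genes in this 8-library comparison. It recovered 49.5% of 99 genes changed 2-fold and 13.1% of 99 genes changed 1.5-fold, with 2 false calls. The simulated WT libraries were given the same spread as the mutants, so the false calls do not test that assumption. For 51 genes changed 2-fold and averaging at least 200 counts it recovered 90.2%. At this depth even 2-fold changes of genes below 200 counts were thus mostly not detectable, and neither were most 1.5-fold changes. Differences between columns 1 and 2 did not go together across the treatments of a line or across the siRNA groups (correlations of −0.0075 to 0.0232). For the stable lines this cannot show whether samples were paired, because their columns differ by sampling noise only.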

Additional observations from a re-analysis of the deposited data

Results flagged for a closer look

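A test of the difference between doxycycline effects singled out 18 genes, which are the called genes of the report. For 17 of them the fitted differences, mutants minus WT on the log2 scale, were −3.22 for HSPA6, −1.24 for HSPA1B, −1.18 for ID2, −1.15 for HILPDA, −0.92 for DUSP1, −0.83 for JMJD6, −0.82 for PFKFB3, −0.80 for ANKRD37, −0.80 for MT2A, −0.75 for GADD45B, −0.74 for BHLHE40, −0.70 for JUNB, −0.65 for SLC2A1, −0.61 for AHNAK, −0.59 for FTH1, −0.52 for EFNA1 and 1.65 for TMEM80. The differences share 1 pair of WT libraries. In 12 of the 17 lower genes WT was above the mutants also without doxycycline, and the part of line differences in these results was not tested.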

How the results depend on the processing

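No called gene changed direction in any alternative. Over the genes named with a test, 357 of 395 values under alternatives kept their side of the threshold, 16 lost it and 22 gained it. The number of lower and higher genes was 17 and 1; it was 40 and 1 with limma-voom, 40 and 7 with no filter on low counts, 14 and 0 with the level offset, 17 and 0 with upper-quartile factors, 20 and 0 with DESeq2, and 25 and 2 with the robust fit. DESeq2 shared 8 of the 17 lower genes and gave no adjusted p for 7 of the 18, which its own filter left out; ANKRD37 (adjusted p = 0.0966), DUSP1 and JUNB missed its threshold. Leaving out 1 mutant line gave 15 to 80 lower and 2 to 22 higher genes, the extremes of 80 and 22 being without K450R, where all 18 were still called. EFNA1 and FTH1 were lost without K451R, and EFNA1 and TMEM80 without K450RK451R. With 1 column of each pair alone there were 24 to 29 lower and 1 to 2 higher genes, and ID2 was lost without replicate 2 (adjusted p = 0.184), EFNA1 and TMEM80 without replicate 1 (0.0878 and 0.221). With the 16 columns as replicates there were 1053 lower and 844 higher genes, and with the replicate block 1060 and 844; these fits compare libraries, not conditions, because the pairs differ by counting noise only.

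The 64 lower and 110 higher genes past 2-fold without p adjustment became 11 and 16 with DESeq2, 5 and 14 at a mean count of at least 100, 125 and 223 with no filter, and 117 and 213 with 16 columns, with or without the block. The 1.5-fold rule gave 137 lower and 286 higher genes at a mean count of at least 20, 11 and 13 at 200, and 89 and 188 to 190 from single columns. For siEHMT1, 13 genes passed, 58 with the replicate block, and 21 to 131 when 1 sample was left out; of the 18 genes, 0 to 1 passed then.

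The main limits are the single WT pair, the unequal depths of WT and mutants, and the tie of variant to line. In simulation of this comparison 13.1% of 1.5-fold changes were recovered, and 64.3% of the 14 at a mean count of at least 1000, so the uncalled lists are not shown to be alike.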

Other observations

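Among the abundant RNAs outside the comparison's calls, the nuclear noncoding RNA NEAT1 had log2 ratios of −2.14 in WT, −1.64 in K450R, −1.92 in K451R and −0.44 in K450RK451R. Its Veh levels were 1124, 837, 672 and 336 CPM and its Dox levels 254, 269, 177 and 247 CPM, so that the lines differed mostly without doxycycline. The difference between mutants and WT was 0.81 ± 0.26 (edgeR adjusted p = 0.434), and in siEHMT1 the change was 0.57 (unadjusted p = 0.0119, edgeR adjusted p = 0.361). It was named after its values were seen.

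Of 40 androgen response genes, 6 were higher and 2 lower in the mutants at an unadjusted p under 0.05, against 3.7% and 3.57% of all genes tested, and none passed the adjusted p in edgeR. PMEPA1, an androgen-induced regulator of TGF-beta signalling, had a difference of 0.68 ± 0.18 (edgeR adjusted p = 0.205), and SLC45A3, the prostate antigen prostein, 0.30 ± 0.11 (edgeR adjusted p = 0.541). The median difference of the list was 0.0088.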
